A study of Homo sapiens with 9 samples.

Results

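Heat shock and unfolded protein response genes were followed as a set of 36 named genes. They were chosen by symbol from a written list of chaperones and their regulators. Earlier results of these data were known when the genes and their role groups were chosen. The set held 36 of the 26485 gene symbols in the count table, and all 36 were among the 12845 genes that passed the filter on low counts. By role it comprised 9 genes for the heat shock factor HSF1 and cytosolic stress chaperones, 3 for constitutive cytosolic HSP70 and HSP90, 4 for subunits of the cytosolic chaperonin CCT, 3 for mitochondrial chaperones, 2 for regulators of the unfolded protein response, 8 for HSP70, HSP90 and J-domain or related proteins of the endoplasmic reticulum (ER), 5 for lectin chaperones and disulfide isomerases of the ER, and 2 for ER-associated degradation.

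RNA sequencing had been done on MV4;11, an established human acute myeloid leukaemia line that carries a rearranged MLL gene. There were 9 libraries, 3 from parental cells, 3 from cells with MYC K148Q (glutamine in place of a lysine of the transcription factor MYC) and 3 from cells with MYC K148R (arginine at that place). The culture medium was RPMI, and no genotype had been treated. The sources used here do not give how the substitutions were made, whether each mutant line is 1 clone or whether libraries of 1 genotype came from separate cultures, so p-values measure the spread between these libraries, which may be technical, and a clone's own traits and the substitution cannot be told apart. In RNA from whole cultures, fewer cells with a transcript and less transcript per cell cannot be told apart either.

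Chaperones bind unfolded proteins and help them to fold. In the heat shock response, HSF1 is held inactive by chaperones and, once released by misfolded protein, binds heat shock elements in the promoters of chaperone genes of the cytosol. In the unfolded protein response, the ER sensors IRE1, PERK and ATF6 signal to the nucleus. IRE1 splices XBP1 mRNA, and ATF6 is cleaved to a transcription factor that binds ER stress elements together with NF-Y. A gene count shows neither the splicing of XBP1 nor the cleavage of ATF6 nor the activity of HSF1.

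Both promoter elements were searched in RefSeq promoter windows (build GRCh38.p14, from 250 bases before to 50 after a gene's start, both strands), which held 34 of the 36 genes. HSF1 and PDIA3 had no window. The ER stress element, CCAAT then 9 bases of any kind then CCACG, was found in 6 of the 34 genes (17.6%), against 25 of all 27305 genes with a window (0.0916%). The heat shock element, GAA, TTC and GAA with 2 bases of any kind between them, was found in 5 of the 34 (14.7%), against 166 of all (0.608%). The genes were chosen as members of these 2 responses, so the higher shares may follow from that choice and are given as a description. The sites are shown because genes that hold the same element moved in different directions below. A match describes the letters and is not evidence of binding, and a window without one says only that these letters are not in it.

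The 6 genes with an ER stress element encode HSPA5 (BiP, the ER HSP70), HSP90B1 (GRP94, the ER HSP90), calreticulin, calnexin, the disulfide isomerase PDIA6 and XBP1. Each site is printed 5′ to 3′ on the strand that carries the element, with its fixed letters in capitals.
HSPA5, chr9:125241386-125241414, minus strand: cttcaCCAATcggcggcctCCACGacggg
HSP90B1, chr12:103930211-103930239, plus strand: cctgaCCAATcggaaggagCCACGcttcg
HSP90B1, chr12:103930316-103930344, minus strand: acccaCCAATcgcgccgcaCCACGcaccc
CALR, chr19:12938379-12938407, minus strand: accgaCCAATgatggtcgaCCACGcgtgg
CANX, chr5:179698773-179698801, plus strand: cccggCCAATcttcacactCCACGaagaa
PDIA6, chr2:10812848-10812876, minus strand: ccggaCCAATgagccgcagCCACGgcttg
XBP1, chr22:28800598-28800626, minus strand: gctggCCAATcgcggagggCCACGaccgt

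The 5 genes with a heat shock element encode the constitutive HSP70 HSPA8, both cytosolic HSP90 genes, the mitochondrial chaperonin HSPD1 and the J-domain protein DNAJA1. The fixed letters are again in capitals, and 1 site is shown for each gene.
HSPA8, chr11:123062171-123062199, plus strand: ctatcttaGAAccTTCcaGAAggggcccg
HSP90AA1, chr14:102087112-102087140, plus strand: agcctcccGAAccTTCcgGAAgaaccctc
HSP90AB1, chr6:44247823-44247851, minus strand: agaatccaGAAgcTTCcaGAAcaatctca
HSPD1, chr2:197500060-197500088, minus strand: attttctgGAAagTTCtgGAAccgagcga
DNAJA1, chr9:33025268-33025296, plus strand: gccgggcgGAActTTCcaGAAcgctcggt

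The 250 bases before the start of HSPA5 (chr9:125241344-125241593, minus strand, no base in an annotated exon) are printed whole, because HSPA5 had the largest rise in K148R cells among the 6 genes with an ER stress element. The exact match is in capitals, spacer included, and begins 66 bases before the start.
HSPA5: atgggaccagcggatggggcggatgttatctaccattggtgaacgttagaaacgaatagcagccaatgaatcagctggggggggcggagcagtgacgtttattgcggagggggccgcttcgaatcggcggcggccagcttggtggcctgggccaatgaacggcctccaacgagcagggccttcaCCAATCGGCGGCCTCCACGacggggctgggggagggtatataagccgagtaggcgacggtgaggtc

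Values are CPM, read counts scaled to a common library size with TMM, and the totals of the 9 libraries ran from 13747087 to 18938391 counts. MYC itself was at 328.8 to 336.1 CPM in parental libraries, 438.6 to 490.7 in K148Q and 375.4 to 382.2 in K148R libraries, and gene counts do not show the substituted codon. Of 12 myeloid leukaemia markers, 11 reached 1 CPM in each genotype, with a summed level of 1600 to 1610 CPM in parental libraries, 2240 to 2290 in K148Q and 3430 to 3470 in K148R libraries. LYZ led that difference (161, 491 and 1650 CPM by genotype), while FLT3 went from 652 and 676 CPM to 301 in K148R. CD3E, KLRD1, MS4A1 and EPCAM had 0 counts, and NKG7 (52.3, 25.9 and 27.1 CPM by genotype) was the only T and NK cell marker at 1 CPM. RN7SK, an RNA without a poly(A) tail, was at 434.6 to 522.6 CPM in K148R libraries and at 3.7 to 16 in the other 6. K148Q replicate 3 stood apart: the chi-square per degree of freedom over genes was 17.3 and 17.8 against replicates 1 and 2, which differed from each other by 1.34, while parental pairs were at 1.54 to 1.62 and K148R pairs at 3.01 to 5.21. The part of these differences in the chaperone results was not tested, and counts of changed genes are also given without K148Q replicate 3.

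Chaperones of the ER were higher in K148R cells than in parental cells, and chaperones of the cytosol and mitochondria were more often lower than higher. Of the 17 genes of the ER and its stress response, 13 were called higher and 2 lower, with a median log2 fold change of 0.50. Of the 19 cytosolic and mitochondrial genes, 5 were called higher and 10 lower, with a median of -0.24. HSPB1, HSPD1, HSPE1 and TCP1 fell more than 2-fold and DNAJB9 rose more than 2-fold. All 36 together gave 18 higher, 12 lower and 6 not called (83.3%), where 75.1% of all tested genes were called, 37.8% higher and 37.3% lower. The median was 0.16 for the 36 and 0 for all tested genes. The 5 changes past 2-fold in 36 genes compare with 29.2% of all tested genes.

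In K148Q cells the same 36 genes gave 13 higher, 11 lower and 12 not called against parental (66.7%), where 53.3% of all tested genes were called, 27.0% higher and 26.3% lower. Cytosolic and mitochondrial genes gave 5 higher and 7 lower, with a median log2 fold change of -0.03, and ER genes gave 8 higher and 4 lower, with a median of 0.12. HSPA1A was the only one past 2-fold, against 11.4% of all tested genes. K148R against K148Q was tested directly and gave 15 higher, 13 lower and 8 not called (77.8%), where 71.0% of all tested genes were called, 36.6% higher and 34.5% lower. There the ER genes gave 11 higher and 2 lower, with a median of 0.34, and the cytosolic and mitochondrial genes 4 higher and 11 lower, with a median of -0.16. Both comparisons with parental cells use the same 3 parental libraries.

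Calls used edgeR's quasi-likelihood test with Benjamini-Hochberg adjustment over all tested genes, and a gene was called at an adjusted p under 0.05. Each standard error (SE) of a log2 fold change was back-calculated from that test. It is the absolute log2 fold change over the square root of the F statistic. Libraries of the compared groups did not overlap for 27 of the 36 genes in K148Q against parental (75.0%, all tested genes 59.5%), for 35 in K148R against parental (97.2%, all tested genes 80.6%) and for 26 in K148R against K148Q (72.2%, all tested genes 71.4%). Without K148Q replicate 3 the called genes numbered 15 higher and 14 lower in K148Q against parental, 19 higher and 16 lower in K148R against parental, and 17 higher and 15 lower in K148R against K148Q. The share of all tested genes called without that library was 64.2%, 80.1% and 74.4% in the same order.

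**Figure D1:**
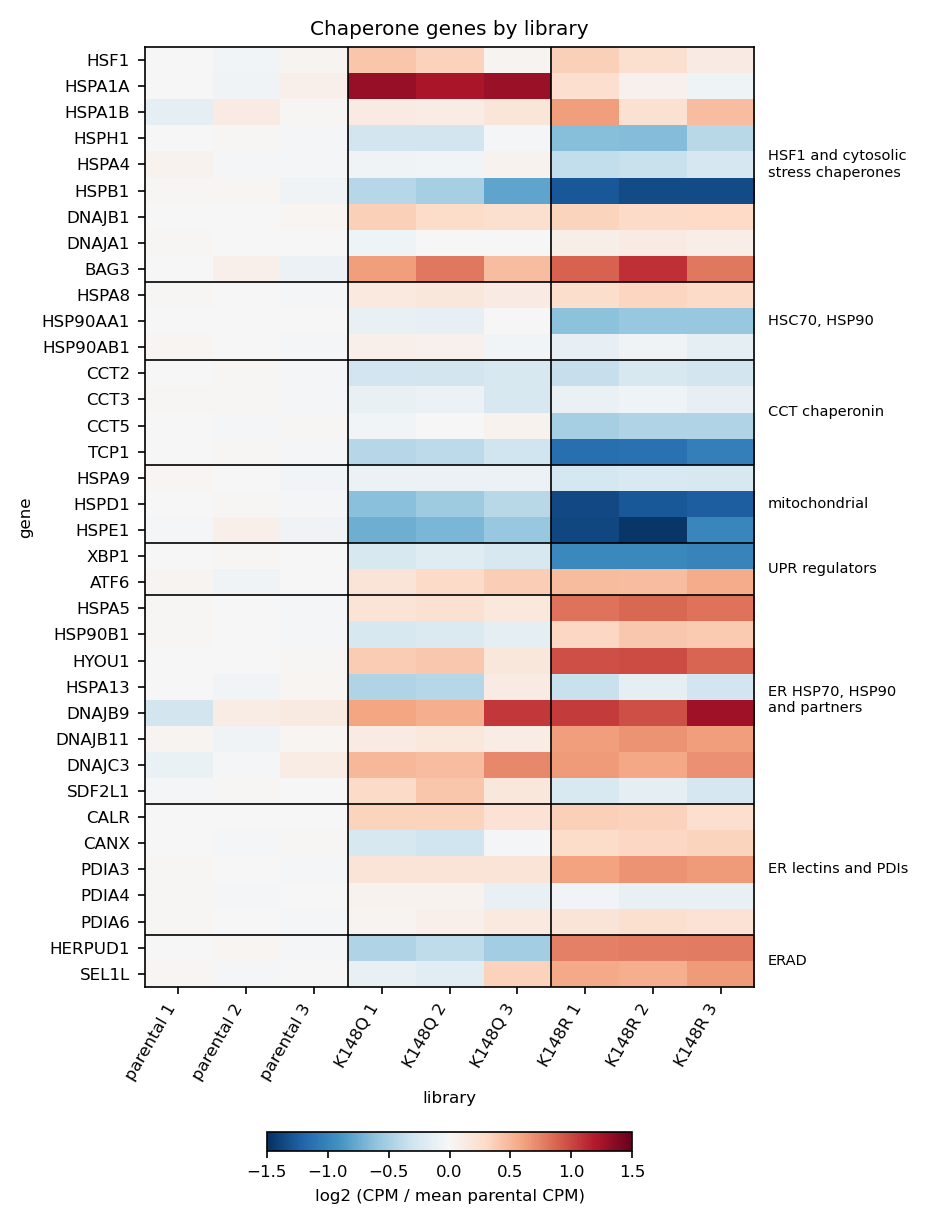
Each of the 36 genes (vertical axis, grouped by role) in each of the 9 libraries (horizontal axis), coloured by log2 of its CPM over the mean of the 3 parental libraries. The mitochondrial genes, HSPB1, TCP1 and XBP1 are below the parental mean in every K148Q and K148R library, most ER genes are above it in every K148R library, and HSPA1A is high in the 3 K148Q libraries alone.

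The summed level of the 36 genes lay between 21342 and 22161 CPM in all 9 libraries, and its make-up differed by genotype. The sum was 22010 ± 154 CPM for parental cells, 21536 ± 193 for K148Q and 21764 ± 320 for K148R (SD, n = 3), or 2.20%, 2.15% and 2.18% of normalised reads. The 19 cytosolic and mitochondrial genes summed to 14406, 14322 and 14154 CPM in parental libraries, 13401, 13537 and 13682 in K148Q libraries and 11447, 11853 and 11715 in K148R libraries. The 17 ER genes summed to 7755, 7693 and 7699 CPM in parental libraries, 7940, 8002 and 8046 in K148Q libraries and 10006, 10239 and 10032 in K148R libraries. In both sums the libraries of the 3 genotypes were fully separate. The ER genes made up 35% ± 0.153 of the sum for parental cells, 37.1% ± 0.115 for K148Q and 46.3% ± 0.252 for K148R. These sums are led by a few abundant genes and are given as a description.

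**Figure D2:**
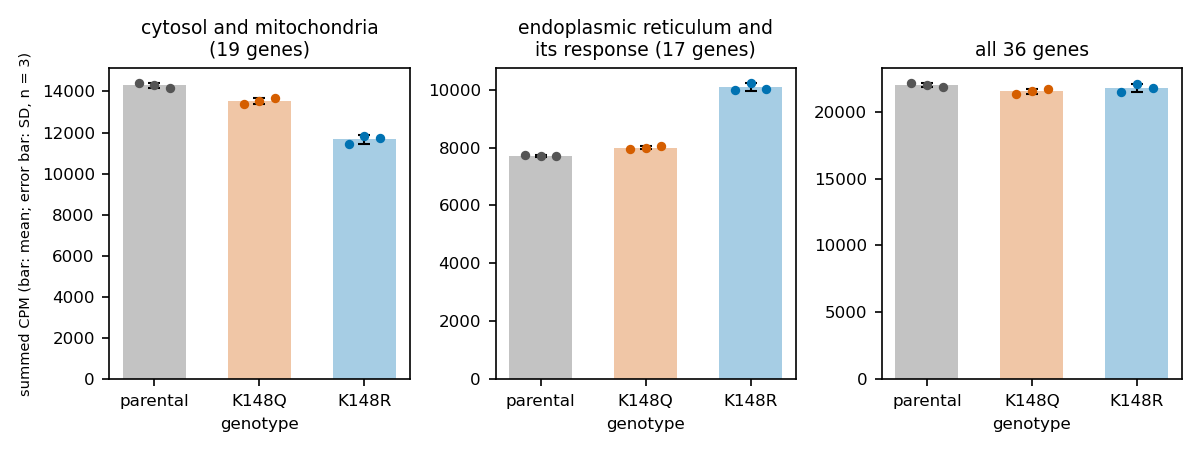
Summed CPM (vertical axis, from 0) of the 19 cytosolic and mitochondrial genes, the 17 ER genes and all 36 genes by genotype, with a point for each library, bars for the mean and error bars for the SD of 3 libraries. The cytosolic and mitochondrial sum steps down from 14294 to 13540 to 11672 CPM, the ER sum is highest in K148R at 10092 CPM, and the total stays between 21342 and 22161 CPM.

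Per kilobase of exon, the most abundant transcripts in parental cells were HSP90AB1 (656 CPM per kb), HSP90AA1 (607), HSPA8 (549) and CALR (523). In K148R cells the order was HSPA8 (672), CALR (652), HSP90AB1 (611), HSPA5 (411) and HSP90AA1 (404). Of the stress-inducible cytosolic genes, HSPA1A, HSPA1B and BAG3 were at only 5.40, 4.10 and 7.73 CPM per kb in parental cells, and DNAJB9 was the lowest of the 36 at 3.43. Length is the union of annotated exons, which overstates the length of transcripts that use only some of them.

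HSF1, the master regulator of the heat shock response, was at 88.8, 86.5 and 90.9 CPM in parental libraries, 118, 113 and 91.4 in K148Q libraries and 114, 105 and 96.6 in K148R libraries. Each mutant library was above each parental library, although K148Q replicate 3 lay within 1 CPM of the highest parental one. The log2 fold change was 0.28 ± 0.0887 (SE) in K148Q (adjusted p = 0.016) and 0.24 ± 0.0886 in K148R (adjusted p = 0.022), and -0.03 between the mutants (adjusted p = 0.74; -0.16 and 0.012 without K148Q replicate 3). Both calls were lost when either of parental replicates 1 and 2 or either of replicates 1 and 2 of the mutant was left out, with adjusted p of 0.051 to 0.082 for K148Q and 0.056 to 0.11 for K148R.

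The inducible HSP70 genes HSPA1A and HSPA1B, neighbours on chromosome 6 that encode near-identical proteins, gave different readings. HSPA1A was at 13.3, 12.9 and 14.1 CPM in parental libraries, 33.2, 31.3 and 32.9 in K148Q libraries and 15.9, 14 and 12.8 in K148R libraries. The K148Q libraries were far above the other 6, which overlapped each other. HSPA1A rose 2.41-fold in K148Q (log2 1.27 ± 0.0967, adjusted p = 7.4e-08), the largest change among the 36 genes in that comparison, and its log2 difference in K148R was 0.09 ± 0.102 (adjusted p = 0.46). K148R was below K148Q by a tested log2 difference of -1.19 ± 0.0957 (adjusted p = 3.8e-08).

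HSPA1B was at 9.41, 11.2 and 10.4 CPM in parental libraries, 11.2, 11.1 and 11.7 in K148Q libraries and 15.9, 12.1 and 14.2 in K148R libraries. It was highest in K148R, with a log2 fold change of 0.45 ± 0.119 against parental (adjusted p = 0.0031) and 0.32 ± 0.118 against K148Q (adjusted p = 0.026), and it was not called in K148Q (0.14 ± 0.122, adjusted p = 0.37). Of all 100-base windows of the HSPA1A transcript, 69.9% are identical in HSPA1B, so the split of reads between both genes is uncertain. The call between the mutants was lost without K148Q replicate 1 (0.066) or 2 (0.065) or K148R replicate 1 (0.14) or 3 (0.057). With their counts summed, K148Q was higher than parental by 0.88 (adjusted p = 1.1e-06), K148R by 0.25 (adjusted p = 0.018), and K148R against K148Q was -0.63 (adjusted p = 1.1e-05), the opposite sign to HSPA1B alone.

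BAG3, a co-chaperone that links HSP70 to selective autophagy, was at 21.3, 22.4 and 19.9 CPM in parental libraries, 32.7, 36.7 and 29.3 in K148Q libraries and 39.1, 45.3 and 36.7 in K148R libraries. All 6 mutant libraries were above the parental ones, and the ranges of both mutants touched. BAG3 rose in K148Q (log2 0.63 ± 0.105, adjusted p = 0.00016) and in K148R (0.93 ± 0.104, adjusted p = 1.2e-06), and the mutants differed by 0.29 ± 0.101 (adjusted p = 0.017; 0.11 without K148R replicate 2). DNAJB1, the J-domain partner of inducible HSP70, was at 130, 129 and 133 CPM in parental libraries, 166, 157 and 153 in K148Q libraries and 164, 158 and 160 in K148R libraries. Both mutants were above the parental range and overlapped each other. DNAJB1 rose in both (log2 0.28 and 0.30, adjusted p = 0.00045 and 0.00011), with a difference between the mutants of 0.02 (adjusted p = 0.75). DNAJA1, another J-domain partner, was at 373 ± 3.86, 367 ± 8.97 and 400 ± 6.41 CPM and passed the test between the mutants (0.13, adjusted p = 0.021; 0.11 without K148Q replicate 1 and 0.077 without K148R replicate 2). Against parental its K148R value of 0.10 did not pass (adjusted p = 0.055) and did without K148Q replicate 3 (0.013) and with DESeq2 (0.048).

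HSPB1 (HSP27), the small heat shock protein that holds unfolded proteins without using ATP, moved the other way. It was at 123, 124 and 118 CPM in parental libraries, 90.9, 86.1 and 70.4 in K148Q libraries and 50.6, 48.2 and 48.1 in K148R libraries, and the 3 genotypes did not overlap. HSPB1 fell by 0.56 ± 0.0808 on the log2 scale in K148Q (adjusted p = 4.6e-05) and by 1.31 ± 0.0831 in K148R (adjusted p = 2e-09), and K148R was below K148Q by a log2 difference of -0.75 ± 0.0835 (adjusted p = 1.3e-06). The HSP110 proteins HSPH1 and HSPA4 exchange the nucleotide of HSP70. HSPH1 went from 383 ± 6.99 to 336 ± 33.4 and 260 ± 23.9 CPM, with log2 fold changes of -0.19 in K148Q (adjusted p = 0.043) and -0.56 in K148R (adjusted p = 6.3e-06). The K148Q call of HSPH1 was lost with DESeq2 (0.061) and without any 1 of the 9 libraries other than K148Q replicate 3 and K148R replicate 3 (0.051 to 0.16). HSPA4 was at 381, 361 and 363 CPM in parental libraries, 355, 358 and 381 in K148Q libraries and 286, 293 and 310 in K148R libraries. Its K148R libraries were below all the others (log2 -0.31 ± 0.0514, adjusted p = 5.9e-05), and K148Q overlapped parental (-0.01, adjusted p = 0.85).

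**Figure D3:**
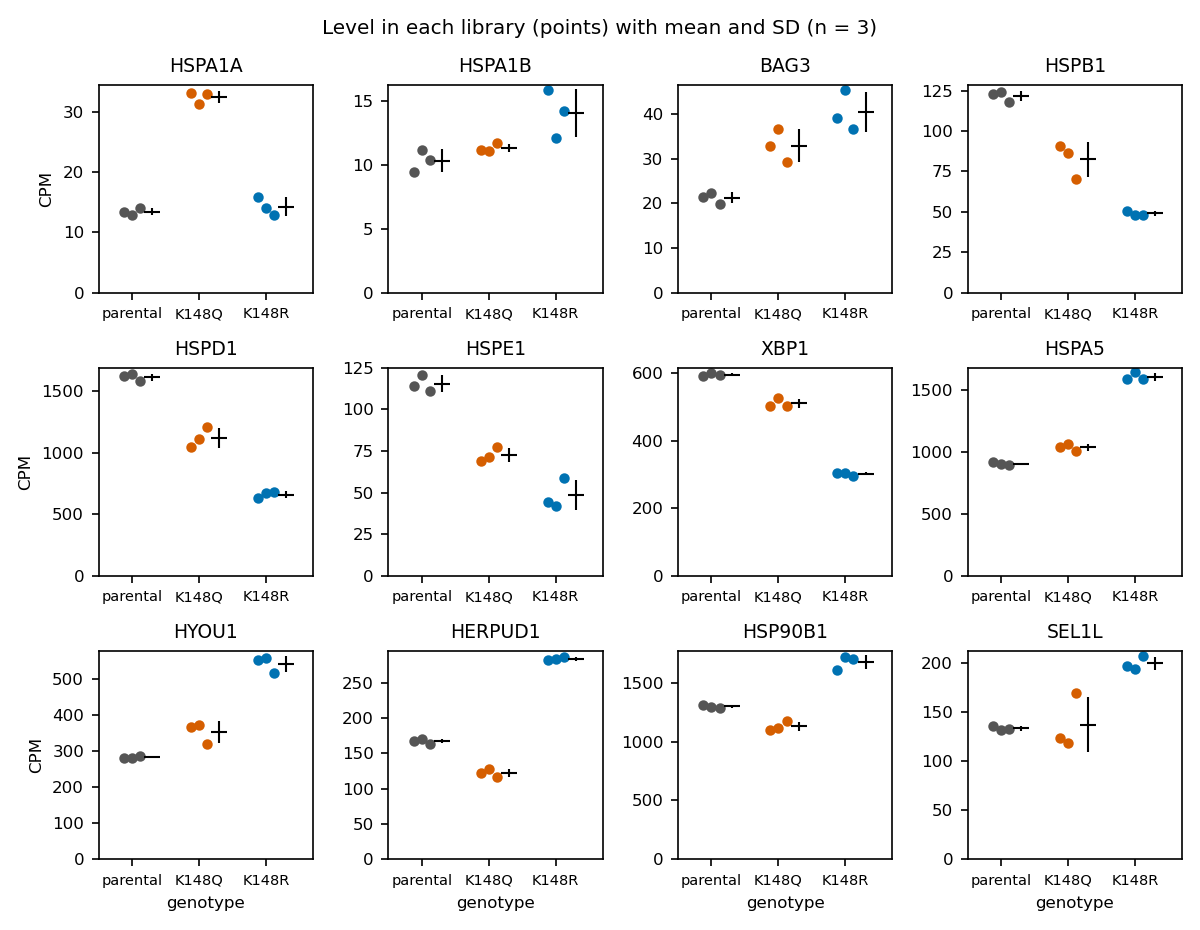
CPM (vertical axes, from 0) of 12 of the genes in each library, by genotype on the horizontal axis, with the mean and SD of 3 libraries beside the points. HSPA1A stands at 31.3 to 33.2 CPM in K148Q alone, HSPB1, HSPD1, HSPE1 and XBP1 step down from parental to K148Q to K148R, and HERPUD1 and HSP90B1 are lowest in K148Q and highest in K148R.

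Among the constitutive genes, HSPA8 rose and HSP90AA1 fell in K148R cells. HSPA8 (HSC70), the housekeeping HSP70, was at 2683, 2667 and 2630 CPM in parental libraries, 2942, 2998 and 2889 in K148Q libraries and 3190, 3328 and 3251 in K148R libraries, with no overlap between genotypes. It rose by a log2 fold change of 0.15 ± 0.0380 in K148Q (adjusted p = 0.005) and 0.29 ± 0.0380 in K148R (adjusted p = 5.9e-06). HSP90AA1, the more stress-inducible HSP90, was at 3185, 3167 and 3207 CPM in parental libraries, 2944, 2927 and 3188 in K148Q libraries and 2078, 2146 and 2142 in K148R libraries. K148Q replicates 1 and 2 lay below the parental range and replicate 3 lay inside it. HSP90AA1 fell in K148R (-0.59 ± 0.0426, adjusted p = 9.2e-09) and was not called in K148Q (-0.08 ± 0.0424, adjusted p = 0.14), but without K148Q replicate 3 it was (-0.11, adjusted p = 0.0021).

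HSP90AB1, the constitutive HSP90, was at 1992, 1958 and 1917 CPM in parental libraries, 2064, 2047 and 1894 in K148Q libraries and 1798, 1885 and 1777 in K148R libraries. Its log2 fold change was 0.03 in K148Q (adjusted p = 0.55) and -0.10 ± 0.0452 in K148R, where the adjusted p of 0.05 after rounding did not pass. In 10 alternatives this fall was called, with log2 fold changes of -0.10 to -0.15, among them limma-voom (0.034) and those without K148Q replicate 1 (0.046), 2 (0.044) or 3 (0.00073) or K148R replicate 2 (0.034). The direct comparison of K148R with K148Q passed (-0.14 ± 0.0452, adjusted p = 0.014; 0.063 with upper-quartile scaling, 0.05 after rounding without K148Q replicate 1 and 0.055 without K148R replicate 3). All 3 genes hold a heat shock element in the windows printed above, and so do HSPD1 and DNAJA1. Of these 5 genes, 1 was called higher and 2 lower in K148R against parental, and 1 higher and 1 lower in K148Q against parental. Between the mutants 2 were called higher and 3 lower. The shares of all tested genes called higher and lower were 37.8% and 37.3%, 27.0% and 26.3%, and 36.6% and 34.5% in that order.

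CCT is a double ring of related subunits that folds actin and tubulin, and 4 of its genes were in the set. TCP1, the gene of subunit alpha, was at 813, 814 and 794 CPM in parental libraries, 601, 616 and 655 in K148Q libraries and 368, 372 and 397 in K148R libraries. The genotypes were fully separate, and the log2 fold change was -0.37 ± 0.0485 in K148Q (adjusted p = 1.8e-05), -1.09 ± 0.0491 in K148R (adjusted p = 3.9e-11) and -0.72 ± 0.0489 between the mutants (adjusted p = 5.3e-09). TCP1 shares 397 exon bases (8.1% of its exon length) with ACAT2 on the opposite strand, and ACAT2 went the other way, from 820 to 1063 reads in parental to 2266 to 2803 in K148R libraries. The sources used here do not give the strand of counting, and the part of shared reads in these values was not tested.

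CCT5 was at 563, 557 and 570 CPM in parental libraries, 547, 562 and 582 in K148Q libraries and 398, 411 and 412 in K148R libraries. Only the K148R libraries stood apart, with a log2 fold change of -0.47 ± 0.0444 (adjusted p = 1.9e-07) against 0 ± 0.0442 in K148Q (adjusted p = 1). CCT2 was at 468, 472 and 462 CPM in parental libraries, 383, 385 and 394 in K148Q libraries and 367, 395 and 386 in K148R libraries. It fell in both mutants (-0.27 and -0.29, adjusted p = 0.00018 and 4.1e-05), with a difference between them of -0.02 ± 0.0456 (adjusted p = 0.74). CCT3 was at 652, 653 and 633 CPM in parental libraries, 599, 609 and 547 in K148Q libraries and 601, 619 and 592 in K148R libraries, with every mutant library below the parental range. It was called in K148Q (-0.14, adjusted p = 0.024; 0.078 without parental replicate 1 and 0.08 without 2). In K148R it was not (-0.10, adjusted p = 0.085), but 4 alternatives called it, among them the one without K148Q replicate 3 (0.0027). In K148R the log2 fold changes of the subunits thus ran from -1.09 for TCP1 to -0.10 for CCT3. Among the other 10 CCT and prefoldin genes, none was called higher in any of the 3 comparisons. Called lower were 5 in K148Q against parental, 8 in K148R against parental and 7 in K148R against K148Q. Of all tested genes, 26.3%, 37.3% and 34.5% were called lower in the same order. CCT4 went from 475 ± 8.73 to 388 ± 14.9 and 297 ± 6.27 CPM, and CCT8 from 1080 ± 15.7 to 912 ± 41.9 and 696 ± 39.8.

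In each comparison with parental cells, the mitochondrial chaperonin genes and HSPB1 had the 3 largest falls of the set. HSPD1 (HSP60) forms the barrel in which proteins fold in the mitochondrial matrix, and HSPE1 (HSP10) is its lid. HSPD1 was at 1617, 1633 and 1580 CPM in parental libraries, 1041, 1110 and 1207 in K148Q libraries and 629, 668 and 682 in K148R libraries. The genotypes were separate, with log2 fold changes of -0.52 ± 0.0542 in K148Q (adjusted p = 1.8e-06), -1.29 ± 0.0550 in K148R (adjusted p = 2.2e-11) and -0.76 ± 0.0546 between the mutants (adjusted p = 9.6e-09). HSPE1 was at 114, 121 and 111 CPM in parental libraries, 69.2, 71.6 and 77.6 in K148Q libraries and 44.6, 42.0 and 58.6 in K148R libraries, again without overlap. Its log2 fold changes were -0.66 ± 0.0998 (adjusted p = 7.2e-05), -1.25 ± 0.102 (adjusted p = 4.2e-08) and -0.59 ± 0.103 (adjusted p = 0.00013) in the same order.

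Both genes lie on chromosome 2 in opposite orientation, HSPE1 at chr2:197499994-197503457 within the annotated span of HSPD1 at chr2:197486581-197516737. They share 281 exon bases, 14.2% of the exon length of HSPE1 and 6.6% of that of HSPD1. In parental libraries HSPD1 had 22577 to 26817 reads and HSPE1 1672 to 1899. As for TCP1, the strand of counting is not given, and the part of shared reads was not tested. Their windows share 1 E-box site, CACGTG, at chr2:197500357-197500362, the element bound by MYC with its partner MAX. The E-box was found in 7 of the 34 genes with a window (20.6%), against 2396 of all 27305 (8.77%), with the shared site counted for both genes. The other 5 were HSPA9, CANX, HSP90B1, HERPUD1 and DNAJB9. In K148R against parental 4 of the 7 were called higher and 3 lower, and in K148Q against parental 1 higher and 5 lower. Of all tested genes, 37.8% were called higher and 37.3% lower in K148R, and 27.0% and 26.3% in K148Q.

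HSPA9 (mortalin), the HSP70 of the mitochondrial matrix, had smaller fold changes than the chaperonin genes. It was at 789, 777 and 755 CPM in parental libraries, 731, 730 and 731 in K148Q libraries and 647, 660 and 654 in K148R libraries, with no overlap. It fell in K148R (log2 -0.24 ± 0.0410, adjusted p = 7.7e-05) and did not pass in K148Q (-0.08 ± 0.0410, adjusted p = 0.1). Of 12 other mitochondrial chaperone and protease genes, 3 were called higher and 6 lower in K148R against parental. In K148Q against parental 3 were called higher and 3 lower. For all tested genes the shares called higher and lower were 37.8% and 37.3% in K148R, and 27.0% and 26.3% in K148Q. DNAJA3, the J-domain partner of HSPA9, fell from 131 ± 0.414 to 78.3 ± 4.91 CPM in K148R, and GRPEL1, its nucleotide exchange factor, rose from 101 ± 1.48 to 124 ± 5.72.

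**Figure D4:**
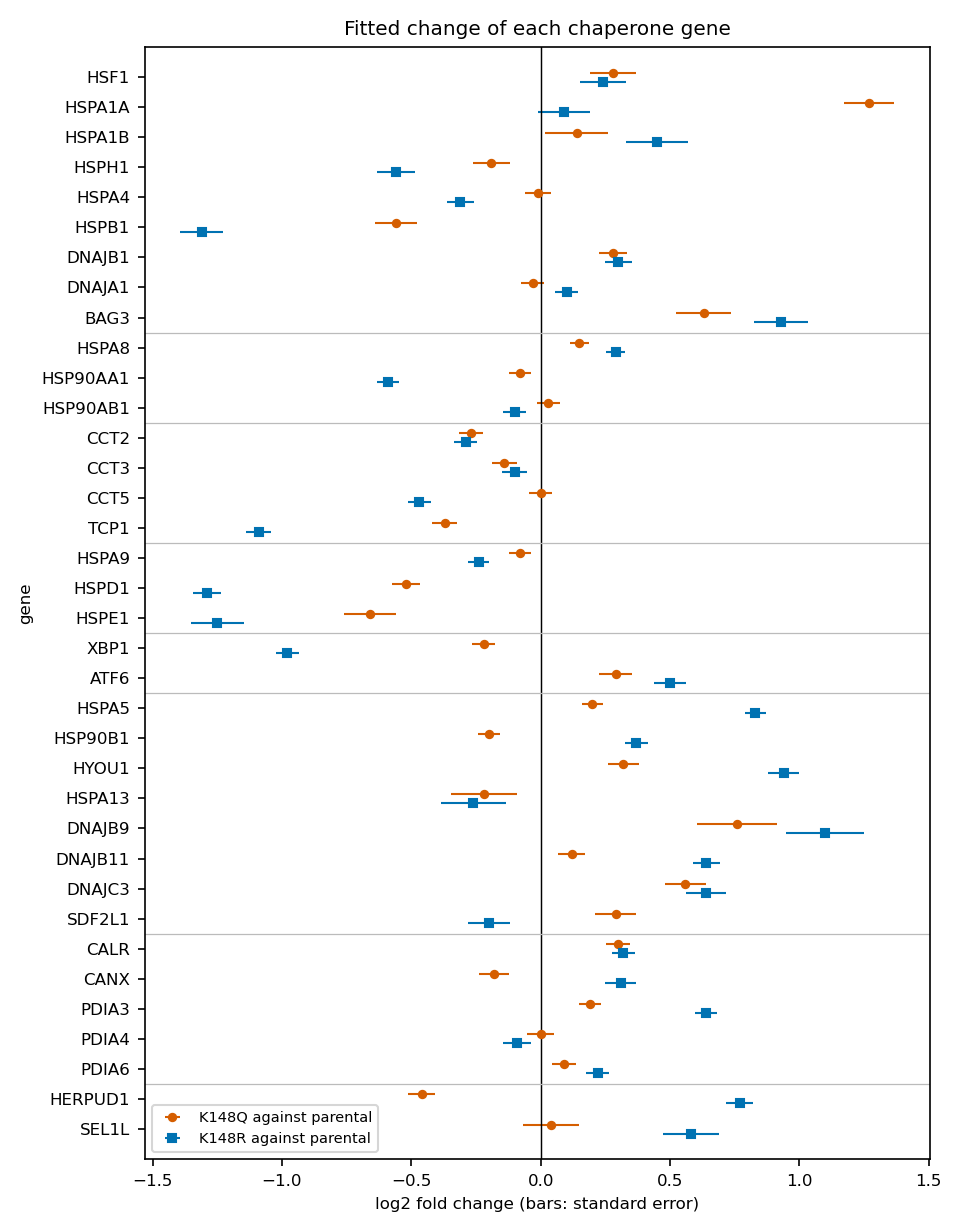
Fitted log2 fold change (horizontal axis, bars are the standard error) of each of the 36 genes (vertical axis) in K148Q (circles) and K148R (squares) against the same 3 parental libraries. Squares lie at -1.31 for HSPB1, -1.29 for HSPD1, -1.25 for HSPE1 and -1.09 for TCP1, and at 0.94 for HYOU1 and 1.10 for DNAJB9. HSP90B1, CANX and HERPUD1 have circles left of 0 and squares right of it.

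The 2 regulators of the unfolded protein response went in opposite directions. XBP1 was at 592, 601 and 595 CPM in parental libraries, 504, 527 and 503 in K148Q libraries and 306, 305 and 297 in K148R libraries. The genotypes did not overlap, and the log2 fold change was -0.22 ± 0.0435 in K148Q (adjusted p = 0.00065), -0.98 ± 0.0441 in K148R (adjusted p = 3.9e-11) and -0.76 ± 0.0440 between the mutants (adjusted p = 8.9e-10). In K148R against parental, XBP1 had the larger of the 2 called falls among the 17 ER genes. The gene lies at chr22:28794555-28800597 on the minus strand, and its ER stress element begins 52 bases before the RefSeq start of the gene.

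ATF6 was at 83.1, 77.7 and 81.1 CPM in parental libraries, 92.4, 98.5 and 104 in K148Q libraries and 112, 111 and 119 in K148R libraries. Again there was no overlap, here with a rise: the log2 fold change was 0.29 ± 0.0634 in K148Q (adjusted p = 0.0017), 0.50 ± 0.0631 in K148R (adjusted p = 4.4e-06) and 0.21 ± 0.0626 between the mutants (adjusted p = 0.0069). Of 15 other sensors and stress factors, 10 were called higher and 3 lower in K148R against parental (86.7%, all tested genes 75.1%). In K148Q against parental 6 were called higher and 2 lower (53.3%, the same share as of all tested genes). MBTPS1, the site-1 protease that begins the cleavage of ATF6, was at 59.3 ± 2.13, 106 ± 3.91 and 176 ± 2.53 CPM and rose in both mutants (log2 0.83 and 1.57, adjusted p = 2.6e-08 and 3.7e-12). NFYA, a subunit of NF-Y, was at 109 ± 0.215, 88.4 ± 3.46 and 71.2 ± 4.69 CPM and fell in both (-0.30 and -0.61, adjusted p = 0.0011 and 4.9e-07). PPP1R15A (GADD34), which restores translation after stress, rose from 37.2 ± 0.372 to 266 ± 27.2 CPM in K148R (2.84, adjusted p = 3.7e-13).

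HSPA5 (BiP), the HSP70 of the ER lumen that also keeps the ER sensors inactive, was at 916, 902 and 894 CPM in parental libraries, 1044, 1062 and 1005 in K148Q libraries and 1590, 1643 and 1589 in K148R libraries. The 3 genotypes were separate, with the lowest K148R library far above the highest K148Q one. HSPA5 rose by a log2 fold change of 0.20 ± 0.0414 in K148Q (adjusted p = 0.001) and 0.83 ± 0.0415 in K148R (adjusted p = 1.3e-10), and the mutants differed by 0.63 ± 0.0414 (adjusted p = 3.5e-09). HYOU1 (GRP170), which exchanges the nucleotide of BiP, was at 280, 281 and 285 CPM in parental libraries, 366, 372 and 318 in K148Q libraries and 550, 556 and 516 in K148R libraries. It followed the same order, with 0.32 ± 0.0597 in K148Q (adjusted p = 0.00043) and 0.94 ± 0.0599 in K148R (adjusted p = 2.1e-09).

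HSP90B1 (GRP94) was at 1311, 1298 and 1288 CPM in parental libraries, 1097, 1119 and 1175 in K148Q libraries and 1613, 1722 and 1705 in K148R libraries. Unlike HSPA5, it lay below the parental range in every K148Q library and above it in every K148R library. It fell in K148Q (log2 -0.20 ± 0.0438, adjusted p = 0.0015), rose in K148R (0.37 ± 0.0438, adjusted p = 2.1e-06), and the tested difference between the mutants was 0.57 ± 0.0439 (adjusted p = 2.2e-08).

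J-domain proteins of the ER hand clients to BiP. DNAJB9 (ERdj4), which also restrains IRE1, was at 8.02, 10.5 and 10.7 CPM in parental libraries, 14.7, 14.2 and 20.3 in K148Q libraries and 20.1, 19 and 23.4 in K148R libraries. All 6 mutant libraries were above the parental ones, and both mutants overlapped. On the opposite strand, DNAJB9 shares 183 exon bases (6.5% of its exon length) with THAP5 and 99 (3.5%) with PNPLA8. PNPLA8 had 359 to 438 reads in parental and 590 to 779 in K148R libraries. THAP5 had 281 to 404 reads in parental and 185 to 217 in K148R libraries. The part of shared reads in DNAJB9 was not tested. DNAJB9 rose in K148Q (log2 0.76 ± 0.155, adjusted p = 0.00085) and in K148R (1.10 ± 0.151, adjusted p = 1e-05), and the difference between the mutants, 0.34 ± 0.144 (adjusted p = 0.045), was lost in 8 of the alternatives (adjusted p 0.06 to 0.17), among them those without parental replicate 2 or 3, K148Q replicate 1 or 2 or K148R replicate 1 or 3. DNAJC3 (p58IPK), a co-chaperone that also inhibits PERK, was at 72.8, 77.2 and 84.5 CPM in parental libraries, 110, 108 and 129 in K148Q libraries and 122, 117 and 126 in K148R libraries. It rose in both mutants (0.56 ± 0.0782 and 0.64 ± 0.0780, adjusted p = 3.2e-05 and 3.1e-06), with 0.07 ± 0.0769 between them (adjusted p = 0.41; 0.14 and 0.017 without K148Q replicate 3). DNAJB11 (ERdj3) was at 118 ± 3.76, 129 ± 2.65 and 184 ± 4.27 CPM and was called in K148R alone (0.64, adjusted p = 3.9e-08; K148Q 0.12, adjusted p = 0.064, and 0.0096 without K148Q replicate 3).

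HSPA13 and SDF2L1 were the members of this role group that did not rise in K148R. HSPA13, an HSP70-like protein of microsomes, was at 49.7, 48.0 and 50.2 CPM in parental libraries, 36, 36.8 and 53.9 in K148Q libraries and 39.1, 44.4 and 40.4 in K148R libraries. K148Q replicate 3 was the highest of all 9 libraries, and replicates 1 and 2 were the lowest. Its log2 fold change was -0.22 ± 0.128 in K148Q (adjusted p = 0.16) and -0.26 ± 0.127 in K148R (adjusted p = 0.084), and without K148Q replicate 3 it was called lower in K148Q (-0.43, adjusted p = 2.3e-06) and in K148R (-0.27, adjusted p = 0.00016). The K148R fall was also called without K148Q replicate 1 (0.046). SDF2L1, a partner of DNAJB11, was at 36.1 ± 0.607, 44.1 ± 3.74 and 31.4 ± 1.22 CPM. It rose in K148Q (0.29, adjusted p = 0.0063) and fell in K148R (-0.20, adjusted p = 0.032), a call lost without K148R replicate 1 (0.083) or 3 (0.091) or parental replicate 2 (0.072) or 3 (0.073).

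Calreticulin and calnexin bind the sugar chains of new glycoproteins. CALR was at 1422, 1415 and 1420 CPM in parental libraries, 1790, 1788 and 1647 in K148Q libraries and 1813, 1801 and 1695 in K148R libraries. It rose in both mutants (log2 0.30 ± 0.0458 and 0.32 ± 0.0458, adjusted p = 8.7e-05 and 1.6e-05), which overlapped (0.02 ± 0.0457, adjusted p = 0.67). CANX was at 1149, 1133 and 1159 CPM in parental libraries, 969, 932 and 1127 in K148Q libraries and 1393, 1420 and 1443 in K148R libraries. In K148Q every CANX library was below the parental range, and CANX, the membrane-bound lectin, fell (-0.18 ± 0.0594, adjusted p = 0.018, and 0.052 to 0.088 in the 5 alternatives that lost the call, among them those without parental replicate 1 or 3 or K148Q replicate 1 or 2). CANX rose in K148R (0.31 ± 0.0594, adjusted p = 0.00027).

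Protein disulfide isomerases form and rearrange disulfide bonds. PDIA3 (ERp57), which works with both lectins, was at 571, 567 and 556 CPM in parental libraries, 645, 648 and 644 in K148Q libraries and 857, 902 and 878 in K148R libraries. It was separate in the 3 genotypes and rose by 0.19 ± 0.0418 in K148Q (adjusted p = 0.0013) and by 0.64 ± 0.0418 in K148R (adjusted p = 2.9e-09) on the log2 scale. PDIA6 was at 522 ± 6.47, 555 ± 22.3 and 607 ± 8.08 CPM and was called in K148R (0.22, adjusted p = 0.00049) and not in K148Q (0.09, adjusted p = 0.11). Between the mutants PDIA6 passed (0.13, adjusted p = 0.019). That call was lost in several alternatives, among them total-count scaling (0.18) and those without K148Q replicate 1 (0.11) or 2 (0.065) or K148R replicate 2 (0.067). PDIA4 was at 312, 304 and 308 CPM in parental libraries, 320, 320 and 286 in K148Q libraries and 300, 284 and 286 in K148R libraries, and did not pass in the 3 comparisons (adjusted p = 0.98, 0.16 and 0.15). Without K148Q replicate 3 it was called lower in K148R, by -0.09 against parental (0.014) and -0.16 against K148Q (0.00048). Among these isomerases PDIA3 had the largest rise.

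Of the 6 genes with an ER stress element in their window, HSPA5, HSP90B1, CALR, CANX and PDIA6 were called higher in K148R against parental and XBP1 lower. In K148Q against parental 2 were called higher and 3 lower, and between the mutants 4 higher and 1 lower. Of all tested genes, 37.8% were called higher and 37.3% lower in K148R against parental. In K148Q against parental these shares were 27.0% and 26.3%, and between the mutants 36.6% and 34.5%. Among other ER genes that were not in the set, 13 of 24 folding genes were called higher and 5 lower in K148R against parental (75.0%, all tested genes 75.1%). In K148Q against parental 14 were called higher and 0 lower (58.3%, all tested genes 53.3%). P4HB, a major disulfide isomerase, was at 1620 ± 32.9, 2760 ± 258 and 3930 ± 83.3 CPM (log2 0.77 and 1.28, adjusted p = 5.9e-08 and 4e-11). QSOX1, a sulfhydryl oxidase, rose from 87.1 ± 3.44 to 383 ± 25.2 CPM in K148R (2.14, adjusted p = 3.5e-12), and LMAN1, a cargo receptor for export from the ER, fell from 135 ± 0.732 to 75.7 ± 8.2 (-0.84, adjusted p = 0.00015). Of 15 translocon and signal peptidase genes, 8 were called higher and 3 lower in K148R against parental (73.3%, all tested genes 75.1%). In K148Q against parental 2 were called higher and 4 lower (40.0%, all tested genes 53.3%). SEC61A1, the channel subunit, was at 400 ± 4.58, 509 ± 33.1 and 712 ± 2.42 CPM.

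HERPUD1 and SEL1L serve ER-associated degradation, in which misfolded ER proteins are passed to the proteasome. HERPUD1, an adaptor of the degradation complex, was at 168, 170 and 164 CPM in parental libraries, 122, 128 and 116 in K148Q libraries and 282, 284 and 287 in K148R libraries. Every K148Q library was below and every K148R library above the parental range. HERPUD1 fell in K148Q (log2 -0.46 ± 0.0528, adjusted p = 5.4e-06), rose in K148R (0.77 ± 0.0520, adjusted p = 4.3e-09) and differed 2.33-fold between the mutants (1.22 ± 0.0528, adjusted p = 2.8e-11), the largest difference of the 36 genes there.

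SEL1L, the scaffold of the HRD1 ubiquitin ligase, was at 136, 131 and 132 CPM in parental libraries, 123, 118 and 169 in K148Q libraries and 197, 194 and 207 in K148R libraries. K148Q replicate 3 was above the parental range while replicates 1 and 2 were below it. SEL1L rose in K148R (0.58 ± 0.108, adjusted p = 0.00034). In K148Q its log2 fold change was 0.04 ± 0.109 (adjusted p = 0.79), and -0.14 without replicate 3 (adjusted p = 0.012). Among 20 other degradation genes, 15 were called higher and 2 lower in K148R against parental and 11 and 1 in K148Q against parental. By comparison, 37.8% of all tested genes were called higher and 37.3% lower in K148R, and 27.0% and 26.3% in K148Q. OS9, a lectin of the same complex, was at 205 ± 5.90, 379 ± 15.1 and 477 ± 25.9 CPM, and EDEM1, which trims the sugars of misfolded proteins, at 150 ± 2.61, 209 ± 12.5 and 336 ± 11.9. DERL3, a derlin of the ER membrane, went the other way, at 28.9 ± 0.624, 17.2 ± 2.53 and 6.72 ± 1.45 CPM (log2 -0.75 and -2.11, adjusted p = 0.00021 and 3.8e-09).

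K148Q replicate 3 differed from replicates 1 and 2 of its genotype by gene. Its log2 CPM minus the mean of both ran from -0.34 for HSF1 to 0.57 for HSPA13, with a median of 0.03 over the 36 genes. The deviation was positive for most genes of low GC content, such as SEL1L and DNAJB9 (both 0.49), and negative for most genes of high GC content, such as HSPB1 (-0.33) and BAG3 (-0.24). Over the 36 genes, which share the same 3 libraries, Spearman's rho with the GC content of the longest coding transcript was -0.82 and Pearson's r was -0.78, given as a description.

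**Figure D5:**
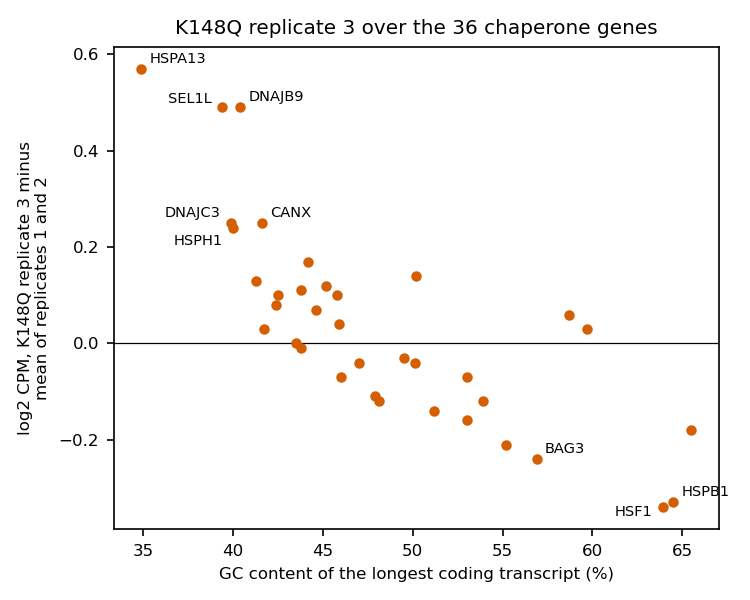
Log2 CPM of K148Q replicate 3 minus the mean of K148Q replicates 1 and 2 (vertical axis) against the GC content in percent of the longest coding transcript (horizontal axis), a point for each of the 36 genes. Points run from 0.57 for HSPA13 at 34.9% GC to -0.34 for HSF1 at 63.9% GC.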

How the data were processed

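The deposited values were raw counts of reads for each gene symbol in the 9 libraries, which the authors had not normalised. Tools named in the submitters' processing notes were HISAT2 2.0.5, featureCounts 1.5.2 and FastQC 0.11.7, with GRCh38 as the build, and the sources used here do not give their options, the strand of counting or the annotation. The test was made in edgeR 4.0.16 under R 4.3.3: filterByExpr by genotype, TMM scaling, a genotype term over all 9 libraries, the robust quasi-likelihood F test and Benjamini-Hochberg adjustment over the 12845 genes kept. The common biological coefficient of variation was 0.074, and the fit was tested on simulated data. An exact permutation test of 3 against 3 libraries cannot give a p below 0.1 and was not used.

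The 36 genes, their role groups and the 133 other pathway genes (131 tested) were chosen with earlier results of these data known. Of the 131, 49.6% were called in K148Q against parental, 78.6% in K148R against parental and 77.9% in K148R against K148Q. The shares of all tested genes were 53.3%, 75.1% and 71.0% in the same order. Values in every library were given for HSF1, XBP1 and ATF6, and in each role group and comparison for the 2 called genes with the largest change and the uncalled gene with the largest p. HSPA1B was added to these as the near copy of HSPA1A. HSP90B1, which this rule did not select, was also given in every library. From each pathway list up to 2 called genes per direction with the smallest p could be named. Positions and exon lengths came from GENCODE v29 (GRCh38) and promoter windows from RefSeq (GRCh38.p14). Alternatives were DESeq2 1.42.0, limma-voom (limma 3.58.1), DESeq2, upper-quartile and total-count scaling inside edgeR, no filter, a filter of 5 CPM in 3 libraries, a fit of the compared groups alone, a replicate block, each library left out, and HSPA1A and HSPA1B summed.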

Additional observations from a re-analysis of the deposited data

How the results depend on the processing

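Every count of genes called, over all tested genes and among the 36, stayed within 1.5 times its value in each alternative. Leaving out each library in turn gave 12 to 15 of the 36 genes higher and 8 to 14 lower in K148Q against parental, 17 to 19 and 11 to 16 in K148R against parental, and 11 to 17 and 12 to 15 in K148R against K148Q. Of the single-gene results under all alternatives, 619, 613 and 614 stayed called in 1 direction or stayed uncalled, in that order of comparisons, while 21, 9 and 30 lost a call (in 4, 2 and 6 genes) and 9, 28 and 4 gained one. A value that was called in the reported or the alternative fit changed sign in 3. Uncalled values near 0 changed sign as well, such as CALR in K148R against K148Q (-0.03 to 0.05) and PDIA4 in K148Q against parental (-0.02 to 0.06) with each library left out. SEL1L in K148Q against parental was -0.14 without K148Q replicate 3 (range with each library left out -0.14 to 0.14), HSPA13 in K148R against K148Q was 0.16 without K148Q replicate 3 (adjusted p = 0.042; range -0.15 to 0.16), and HSPA1B in K148R against K148Q was -0.63 with HSPA1A and HSPA1B summed. The sum is led by HSPA1A, and for the others the cause was not tested.

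Whether the replicate numbers pair the libraries could not be decided. Deviations were correlated above 0.1 in 2 of 9 pairs with the same number (range -0.02 to 0.27). The highest value was that of replicate 3 of K148Q with replicate 3 of K148R. Of 9 libraries, 4 correlated best with their own number. Weak correlations cannot show that libraries were unpaired. With the replicate block, 13 of the 36 genes were called higher and 11 lower in K148Q against parental (7262 of all tested genes), 18 and 15 in K148R against parental (9821), and 15 and 13 in K148R against K148Q (9410). With 3 libraries per genotype, the K148Q calls of HSF1, HSPH1, CCT3 and CANX against parental turned on single libraries. So did the K148R calls of HSF1 and SDF2L1 against parental. Between the mutants, the calls of HSPA1B, DNAJA1, BAG3, HSP90AB1, DNAJB9 and PDIA6 did as well.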
